A study of Homo sapiens with 17 samples.

Results

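The genes described here are 9 members of the machinery that releases paused RNA polymerase II: the bromodomain and extraterminal (BET) genes BRD2 and BRD3, the kinase CDK9 with its cyclins CCNT1 and CCNT2, and the inhibitory 7SK particle genes HEXIM1, HEXIM2, LARP7 and MEPCE. They were chosen by name, as parts of this machinery, and are 9 of the 57820 genes in the tables. Poly-A RNA-seq had been done on 17 libraries of 2 cancer cell lines, 13 of KYSE140 (esophageal squamous carcinoma) and 4 of SKMES1 (lung squamous carcinoma), in a study of e1, an enhancer of the transcription factor gene SOX2. In CRISPR interference (CRISPRi), KYSE140 cells stably expressed an inactive Cas9 fused to repressor domains and carried e1 guide 1 or 2 (2 libraries) or control guides with no site in the genome (2 libraries). In the knockout experiment, KYSE140 cells expressed active Cas9 with SOX2 guide 2, 3 or 4, which cut the coding region (3 libraries), or with control guides that cut AAVS1 or a chromosome 2 region (2 libraries). KYSE140 cells with no CRISPR construct named in the labels received 0.5 µM ARV-771 or its solvent DMSO for 6 h (2 libraries each, A and B). In CRISPR activation (CRISPRa), SKMES1 cells expressed dCas9-VP64 with guide scaffolds that recruit further activators, and carried e1 guide 1 or 3 (2 libraries) or control guides 1 and 2 (2 libraries). All CRISPR lines were drug-selected populations of infected cells, and no cloning step is described. Replicates were different guides or the letters A and B. The study calls its e1 repression and e1 activation libraries biologically independent experiments, each with its own guide. The knockout libraries also each had their own guide and so came from separately infected cells, but whether these were independent experiments is not stated. For the DMSO and ARV-771 libraries nothing says that they came from separate cultures. Their p-values measure the spread between libraries, which may be technical.

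After RNA polymerase II starts a gene, it pauses a short way downstream until the kinase P-TEFb, made of CDK9 and cyclin T1 or T2, phosphorylates the polymerase and the pausing factors. Much of the cell's P-TEFb is held inactive in a particle built on the noncoding 7SK RNA, where HEXIM1 or HEXIM2 inhibits the kinase, LARP7 binds the 7SK 3′ end and MEPCE caps its 5′ end. BET proteins bind acetylated histones through paired bromodomains and help bring P-TEFb and coactivators to promoters and enhancers. ARV-771 is a proteolysis-targeting chimera that links BET proteins to a ubiquitin ligase and so causes their degradation; RNA-seq measures the transcripts of these genes, not the proteins. HEXIM1 RNA is widely used as a readout of exposure to BET inhibitors. ARV-771 is a degrader, so no direction for HEXIM1 was taken from that use.

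Library totals were 7260730 to 15781463 expected counts. At these depths, 3 counts correspond to 0.19 to 0.413 CPM (counts relative to a fixed library total). SOX2 itself followed the labels: it stood at 365 to 379 TPM (share of transcripts after correction for length) with CRISPRi control guides and 120 to 128 with e1 guides, at 397 to 428 in knockout controls and 103 to 221 after knockout, at 223 to 236 with DMSO and 9.80 to 10.5 with ARV-771, and at 1.53 to 1.68 with CRISPRa control guides and 224 to 316 with e1 guides. The squamous markers went against the label of SKMES1. In its 4 libraries only 2 of 6 markers exceeded 1 TPM in every library, and the summed level was 324 to 937 TPM, against 5558 to 30014 TPM with all 6 detected in KYSE140. The blood markers PTPRC, CD3E and HBB summed to at most 0.95 TPM in any library, and no endothelial marker was included in that sum. BRD3 overlaps BRD3OS (4.47 to 25.3 TPM) and MEPCE overlaps ZCWPW1 (2.27 to 8.08 TPM) on the opposite strand. The kit kept strand, but the strand setting of the counting was not given in the sources used here, so reads in those overlaps are uncertain. All 9 genes had whole-number counts in 17 of 17 libraries.

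The genes lie apart in the genome, except that HEXIM1 and HEXIM2 are neighbours. In GENCODE 44 on GRCh37, HEXIM1 spans chr17:43225842-43229466 and HEXIM2 spans chr17:43238067-43247407, both on the plus strand with 8600 bases between them. MEPCE lies at chr7:100025945-100031749 on the plus strand and LARP7 at chr4:113558233-113578852 on the plus strand. The other members are BRD2 (chr6:32936371-32949282, plus), BRD3 (chr9:136895427-136933657, minus), CDK9 (chr9:130547958-130553071, plus), CCNT1 (chr12:49082241-49110781, minus) and CCNT2 (chr2:135675805-135716912, plus). The 250 bases before the RefSeq start (GRCh38.p14) are shown for HEXIM1 and MEPCE, whose RNA fell most under ARV-771 apart from HEXIM2, which had few counts there, and for LARP7, which was not called. They are HEXIM1 at chr17:45148225-45148474, MEPCE at chr7:100428540-100428789 and LARP7 at chr4:112636893-112637142, all on the plus strand. Capitals mark matches on either strand to the GC box (GGGCGG), the CCAAT box (CCAAT) and the TATA box (TATAAA).
HEXIM1: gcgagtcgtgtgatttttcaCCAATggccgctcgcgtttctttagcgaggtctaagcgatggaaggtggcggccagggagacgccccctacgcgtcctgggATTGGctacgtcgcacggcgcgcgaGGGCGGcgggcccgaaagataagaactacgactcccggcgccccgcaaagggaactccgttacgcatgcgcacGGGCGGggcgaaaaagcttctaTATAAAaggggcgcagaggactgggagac
MEPCE: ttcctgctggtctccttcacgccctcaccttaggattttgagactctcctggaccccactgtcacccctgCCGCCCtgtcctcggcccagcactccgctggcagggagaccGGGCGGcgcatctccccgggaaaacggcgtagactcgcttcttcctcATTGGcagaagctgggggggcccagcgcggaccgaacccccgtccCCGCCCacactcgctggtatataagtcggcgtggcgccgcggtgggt
LARP7: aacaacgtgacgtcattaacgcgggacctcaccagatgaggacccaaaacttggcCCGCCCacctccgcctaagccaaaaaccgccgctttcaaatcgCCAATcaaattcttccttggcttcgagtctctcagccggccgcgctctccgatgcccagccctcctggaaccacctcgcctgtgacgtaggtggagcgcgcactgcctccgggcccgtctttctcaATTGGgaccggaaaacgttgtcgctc
HEXIM1 was the only member of 9 with an exact TATAAA match, against 10.7% of the 35116 promoters of that length in the RefSeq table. Variants of this string were not searched, such as the tatataag near the end of the MEPCE window. A GC box match stood in 8 of the 9 member promoters and in 42.6% of all, and a CCAAT box match in 5 of 9 and in 32.0% of all. The windows of HEXIM1, MEPCE and LARP7 held 31, 22 and 23 CpG dinucleotides, against a median of 11 over all promoters. The HEXIM2 window held 1 CpG and none of these 3 motifs. Only 1 RefSeq start was used for each member, and HEXIM2 has 8 transcripts in GENCODE 44, so other starts were not examined. An E-box (CACGTG) was found in CCNT1 alone of the 9 (6.34% of all promoters), and an AP-1 site (TGANTCA) in 0 of 9 (6.57% of all). A match or its absence in this window says nothing of which factors bind there.

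In control KYSE140 cells (control guides or DMSO), the members covered a wide range of levels. Levels are given in TPM, which corrects for transcript length and so can be compared between genes. BRD2 was the highest of the 9 at 132 ± 17.9 TPM (SD, n = 6 control libraries from 3 experiments). MEPCE followed at 62.0 ± 4.94 TPM. LARP7 at 36.2 ± 3.27 TPM and CDK9 at 32.3 ± 4.54 TPM overlapped each other. CCNT1 (20.2 ± 4.30 TPM), HEXIM1 (16.9 ± 2.29 TPM) and BRD3 (15.6 ± 2.40 TPM) also overlapped. The highest CCNT1 library (27.5 TPM) lay above the lowest CDK9 library (25.4 TPM), so CCNT1 and CDK9 overlapped too. HEXIM2 (11.5 ± 1.25 TPM) and CCNT2 (9.13 ± 2.02 TPM) were lowest and overlapped. CCNT1 RNA thus stood above CCNT2 RNA in the same libraries, with a ratio of 1.61 to 3.04 within each, and HEXIM1 above HEXIM2 with a ratio of 1.35 to 1.71. Over all 17 libraries LARP7 varied least, from 27.3 to 39.9 TPM, a 1.46-fold range, and HEXIM2 varied most, from 0.48 to 14.5 TPM.

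**Figure D1:**
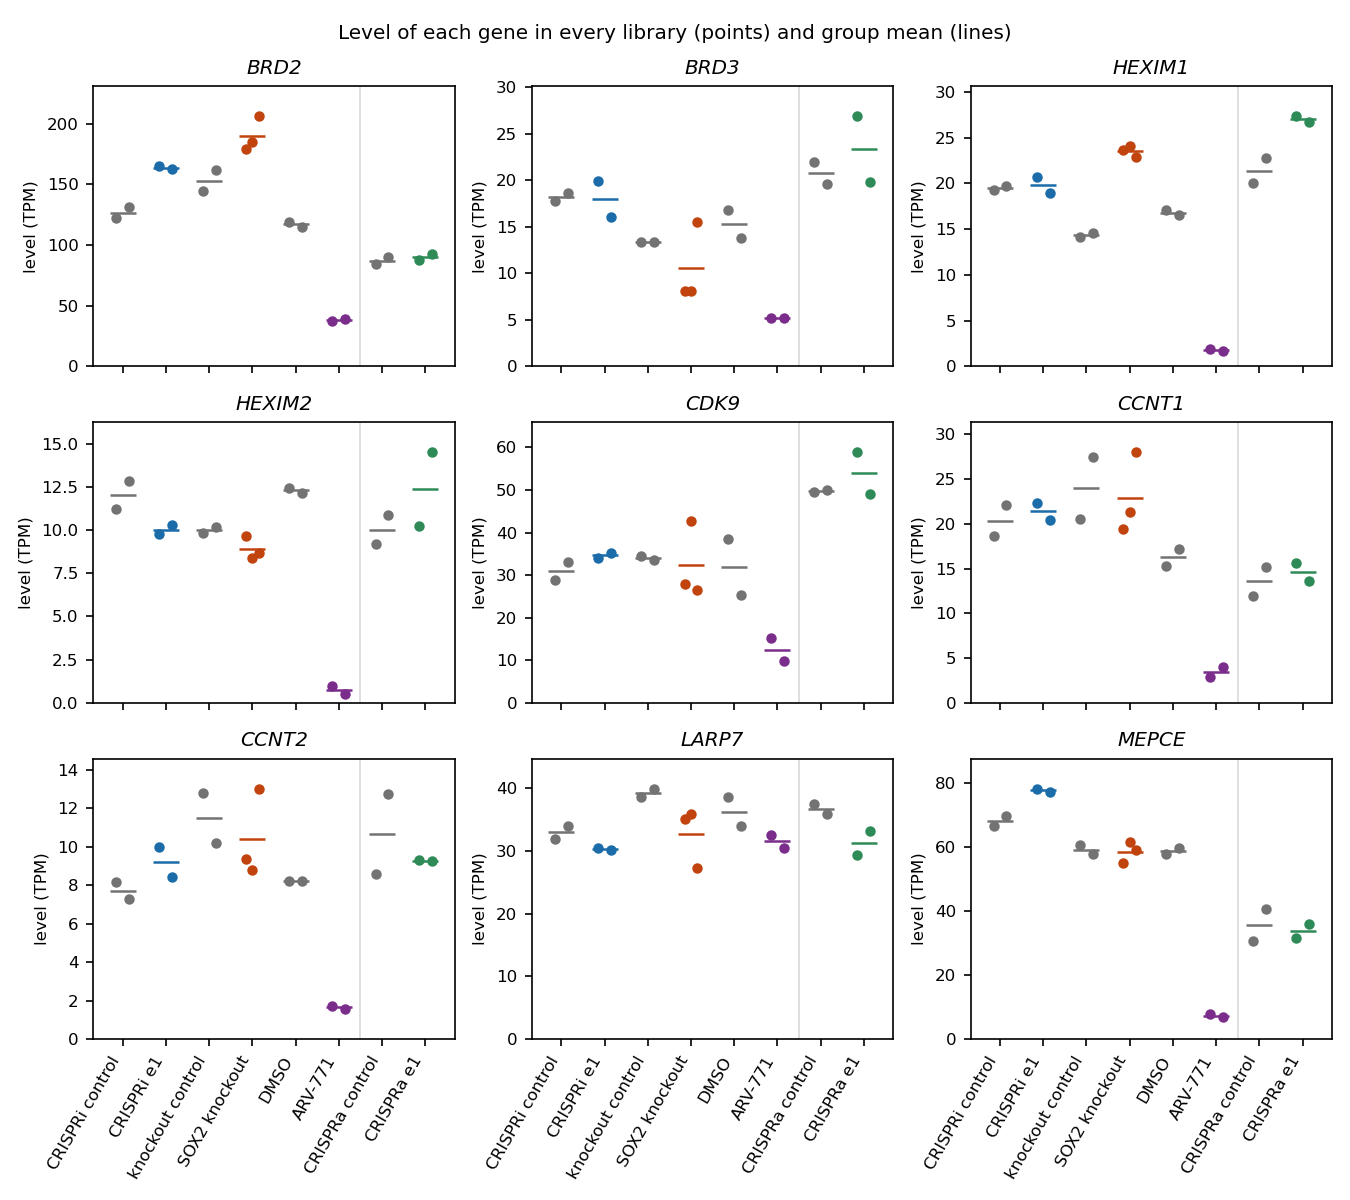
Level of each of the 9 genes in TPM (vertical axis, linear from 0, a scale of its own for each gene) in every library, by group (horizontal axis); points are libraries, short lines are group means, and a vertical line separates KYSE140 (left) from SKMES1 (right). In 8 of the panels the ARV-771 points lie below every other group, whereas LARP7 stays at 30.6 and 32.6 TPM.

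The largest changes came with ARV-771. In this comparison 7 of the 9 genes fell and 0 rose, by a rule that asks for an adjusted p under 0.05 in edgeR's quasi-likelihood test and for more than 1.5-fold. By the same rule 31.7% of the 13500 genes tested fell, 21.2% rose and 52.9% were called in either direction. Without the fold limit all 9 passed, as did 75.2% of genes tested. BRD2, BRD3, HEXIM1, HEXIM2, CCNT1, CCNT2 and MEPCE fell, and CDK9 and LARP7 were not called on this scale. The median log2 fold change of the 9 genes was -1.57, against -0.04 over all genes tested. In bulk RNA, a loss of cells of one kind and a loss of RNA per cell cannot be told apart. The share of counts from mitochondrially encoded genes was 7.52% to 7.74% with ARV-771 and 4.67% to 5.28% with DMSO, and the 10 most abundant genes took 9.92% to 10.1% against 6.73% to 7.22%. Their part in the changes was not tested.

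The BET genes themselves fell moderately. BRD2 stood at 119 and 115 TPM in DMSO libraries A and B and at 37.5 and 39.1 TPM in ARV-771 libraries A and B. BRD3, which encodes another BET reader of acetylated histones, stood at 16.8 and 13.8 TPM with DMSO and at 5.17 and 5.23 TPM with ARV-771. For both genes the treated libraries lay well below the controls with no overlap, as they did for 83.3% of all genes tested. On the TMM scale, which assumes that most genes keep their share, the log2 fold change was -0.94 ± 0.06 (SE) for BRD2 and -0.85 ± 0.09 for BRD3. The adjusted p from edgeR's quasi-likelihood test with Benjamini-Hochberg adjustment was 4.2e-13 and 9.2e-09. Their proportion to each other held in these libraries: BRD2 to BRD3 was 7.09 to 8.31 with DMSO and 7.26 to 7.47 with ARV-771, and these ranges overlapped.

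Of the P-TEFb subunits, both cyclins fell further than the BET genes and the kinase had the smallest fitted change. CCNT1, cyclin T1, stood at 15.3 and 17.2 TPM with DMSO and at 2.85 and 3.99 TPM with ARV-771. CCNT2, cyclin T2, stood at 8.20 and 8.22 TPM with DMSO and at 1.72 and 1.57 TPM with ARV-771. In neither gene did the groups overlap. Their log2 fold changes on the TMM scale were -1.57 ± 0.09 and -1.80 ± 0.14 (SE), with adjusted p of 7.6e-14 and 1.4e-11 in edgeR's quasi-likelihood test. CDK9, the catalytic subunit, stood at 38.4 and 25.4 TPM with DMSO and at 15.1 and 9.83 TPM with ARV-771, so that replicates A and B differed widely in each group although the groups did not overlap. This spread accompanied the transcript length that RSEM assigned to CDK9, which was 1631 and 1966 bases with DMSO and 1537 and 2499 bases with ARV-771. In CPM, which does not use that length, CDK9 was 41.8 and 33.6 with DMSO and 18.5 and 20.4 with ARV-771. On the TMM scale its log2 fold change was -0.49 ± 0.11 (SE, adjusted p = 0.00031, edgeR quasi-likelihood), short of the 1.5-fold limit. It passed the limit under 5 of the other settings with that limit, by library size alone (-0.95), for example.

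The genes of the 7SK particle fell most and also included the exception. HEXIM1, the inhibitor of CDK9, stood at 17.1 and 16.5 TPM with DMSO and at 1.95 and 1.73 TPM with ARV-771, a 9.12-fold lower mean. Its log2 fold change on the TMM scale was -2.48 ± 0.11 (SE, adjusted p = 1.2e-15, edgeR quasi-likelihood), and 751 of the 13500 genes tested fell further. The transcript length given for HEXIM1 was 4785 bases in every library, so its TPM values carry no isoform shift. That length exceeds the span given above for HEXIM1, so the counted gene model was longer than the one with those coordinates. HEXIM2, its paralog with the same inhibitory role, stood at 12.5 and 12.2 TPM with DMSO and at 0.96 and 0.48 TPM with ARV-771. These levels rested on 84 and 84 counts against 9 and 3 counts. In CPM HEXIM2 was 14.7-fold higher with DMSO than with ARV-771, with an exact 95% interval of 8.18 to 29.0 that covers counting error only. Its fitted log2 fold change of -3.38 ± 0.39 (SE, adjusted p = 3.2e-08, edgeR quasi-likelihood) became -2.61 without ARV-771 library B and -4.54 without library A. The order of the HEXIM genes therefore cannot be read from these fits.

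MEPCE, the 7SK capping enzyme, stood at 57.7 and 59.7 TPM with DMSO and at 7.87 and 6.75 TPM with ARV-771, with no overlap. Its log2 fold change on the TMM scale was -2.40 ± 0.09 (SE, adjusted p = 2.6e-17, edgeR quasi-likelihood), and 816 genes fell further. LARP7, the 7SK 3′ end binding protein, was the exception. It stood at 38.6 and 34.0 TPM with DMSO and at 32.6 and 30.6 TPM with ARV-771, so the treated libraries were lower by 1.15-fold in mean TPM. In CPM it was 50.4 and 46.3 with DMSO and 55.1 and 49.3 with ARV-771, and these overlapped. On the TMM scale its log2 fold change was 0.57 ± 0.08 (SE, adjusted p = 1.0e-06, edgeR quasi-likelihood), just inside the 1.5-fold limit. LARP7 passed that limit and was called as risen with RLE factors and with DESeq2 (0.61 in each). The components of the 7SK particle thus moved by different amounts: LARP7 against DMSO stayed above the median gene while MEPCE, HEXIM1 and HEXIM2 lay far below it.

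**Figure D2:**
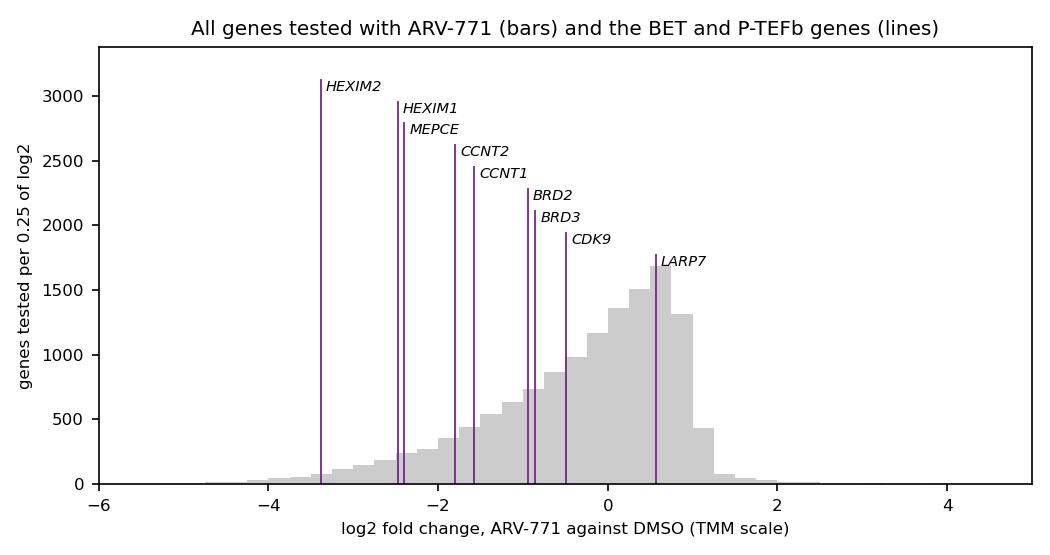
Number of genes tested (vertical axis) by log2 fold change of ARV-771 against DMSO on the TMM scale (horizontal axis, in steps of 0.25), with a line at the value of each of the 9 genes; line heights only separate the labels, and changes beyond the axis are not drawn. LARP7 (0.57) stands at the peak of the distribution, and HEXIM1 (-2.48), MEPCE (-2.40) and HEXIM2 (-3.38) stand in its lower tail.

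The size of each change with ARV-771 depended on the scaling. The median gene changed by 0.01 on the log2 scale with TMM, by 0.05 with RLE factors, by -0.45 with library size alone, by -0.60 with limma on log2(TPM + 1) and by -1.07 when libraries were scaled to the mitochondrially encoded genes. HEXIM1 ranged from -3.55 to -2.35, MEPCE from -3.47 to -2.34, CCNT2 from -2.87 to -1.73, CCNT1 from -2.65 to -1.49, BRD2 from -2.03 to -0.89 and BRD3 from -1.94 to -0.74 over 13 other settings, all 6 called in each. LARP7 changed sign, from 0.57 with TMM to -0.19 with limma on log2(TPM + 1) and -0.51 with the mitochondrial scaling. Relative to the median gene of the same scaling, LARP7 was higher by 0.41 to 0.56 in all 5 scalings, and CDK9 was lower, at -0.68 to -0.50. Relative to that median, HEXIM1 stood at -2.49 to -2.04 and MEPCE at -2.41 to -2.24.

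**Figure D3:**
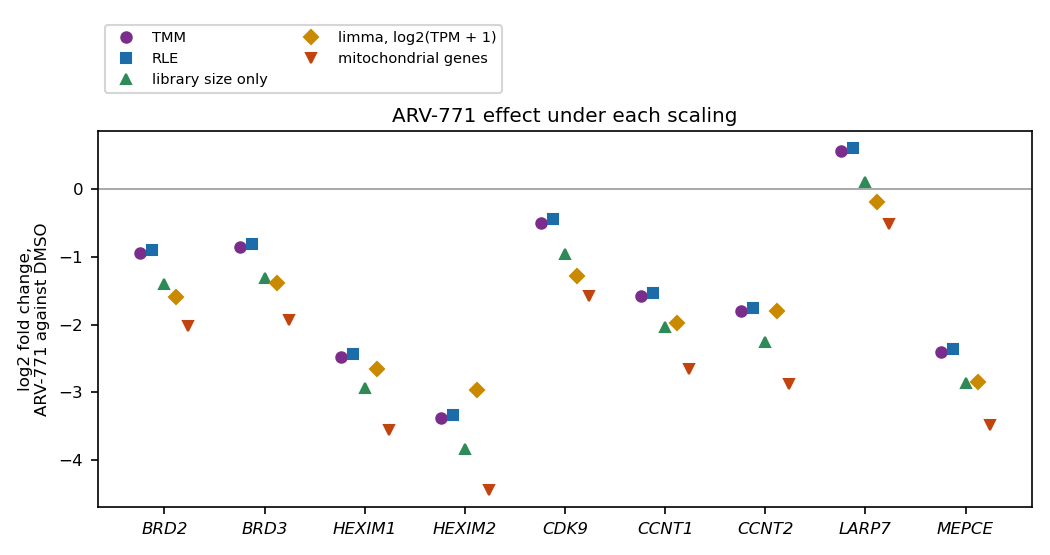
Log2 fold change of ARV-771 against DMSO (vertical axis) for each of the 9 genes (horizontal axis) under 5 scalings, shown by symbol; each point is a fitted value and no error is drawn. BRD2, BRD3, HEXIM1, HEXIM2, CDK9, CCNT1, CCNT2 and MEPCE lie below 0 under all 5, while LARP7 lies above 0 under TMM (0.57), RLE (0.61) and library size (0.10) and below 0 under the other scalings.

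Ratios between members within a library do not depend on scaling. The TPM of CDK9 divided by that of HEXIM1 plus HEXIM2, a ratio of kinase to inhibitor RNA, was 0.886 to 1.30 with DMSO and 4.45 to 5.20 with ARV-771. It was 0.836 to 1.70 in the other 13 libraries, so the ARV-771 libraries stood apart from all others. The ratio of CCNT1 to CCNT2 was 1.86 to 2.09 with DMSO and 1.66 to 2.54 with ARV-771 and overlapped. HEXIM1 to HEXIM2 was 1.35 to 1.37 with DMSO and 2.03 to 3.60 with ARV-771, where the denominator rests on 9 and 3 counts. Between groups of 2 libraries the two-sided exact permutation test cannot give a p below 0.333, which is what it gave for the kinase ratio and for HEXIM1 to HEXIM2.

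**Figure D4:**
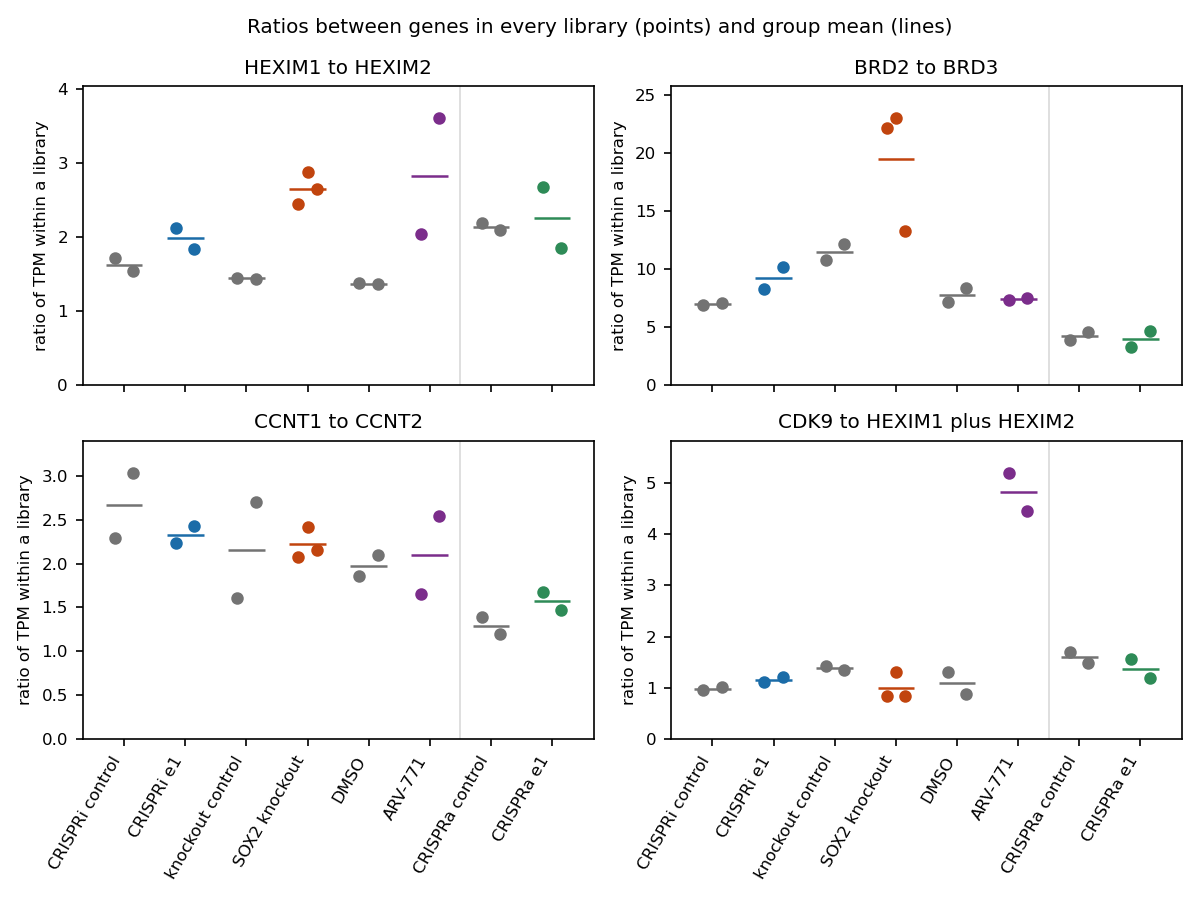
Ratios of TPM between members within each library (vertical axis, linear from 0, a scale of its own per panel) by group (horizontal axis); points are libraries, short lines are group means, and a vertical line separates KYSE140 (left) from SKMES1 (right). CDK9 to HEXIM1 plus HEXIM2 is 4.45 and 5.20 with ARV-771 and at most 1.70 elsewhere, and HEXIM1 to HEXIM2 is higher after SOX2 knockout (2.43 to 2.88) than in its controls (1.43 to 1.44).

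After SOX2 knockout HEXIM1 rose, and 1 of the 9 genes was called in all; 29.7% of the 13978 genes tested were called, 16.3% upward. HEXIM1 stood at 14.2 and 14.5 TPM in the control libraries and at 23.6, 24.1 and 22.9 TPM in the knockout libraries of guides 2, 3 and 4. All 3 knockout libraries lay above both controls; the groups were likewise separate for 63.6% of genes tested. Its log2 fold change on the TMM scale was 0.91 ± 0.09 (SE, adjusted p = 2.9e-06, edgeR quasi-likelihood). It was 0.67 to 0.96 over 12 other settings and was called in each. HEXIM2 stood at 9.69, 8.37 and 8.66 TPM against 9.85 and 10.2 TPM in controls, lower in TPM without overlap. On the TMM scale it had a log2 fold change of 0.11 ± 0.21 (SE, adjusted p = 0.70, edgeR quasi-likelihood) and an approximate 95% interval of -0.30 to 0.51. The ratio of HEXIM1 to HEXIM2 was accordingly 2.43 to 2.88 after knockout and 1.43 to 1.44 in controls (two-sided exact permutation p = 0.20, with 0.10 the smallest possible). In the same libraries the 6 squamous markers, all detected in every library, summed to 25070 to 30014 TPM after knockout and to 7432 to 7470 TPM in controls. In KYSE140, KRT6A reached 15182 TPM and KRT5 8392 TPM, against at most 182 TPM for TP63 and 195 TPM for DSG3. The squamous sum thus says little of TP63 and DSG3. The 4 mesenchymal markers, 2 of them above 1 TPM in every library, summed to 1196 to 1319 TPM against 247 to 283 TPM. Most of each sum was VIM: in KYSE140, COL1A1 reached at most 43.9 TPM and COL3A1 and PDGFRB at most 0.08 TPM. The part of these shifts in the HEXIM1 value was not tested.

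The BET genes had fitted changes of opposite sign after knockout, both under 1.5-fold. Without the fold limit 4 of the 9 genes passed (BRD2, BRD3, HEXIM1 and MEPCE), against 51% of genes tested. BRD2 stood at 144 and 162 TPM in controls and at 179, 185 and 206 TPM after knockout, without overlap. Its log2 fold change was 0.49 ± 0.07 (SE, adjusted p = 0.00016, edgeR quasi-likelihood). BRD3 stood at 13.4 and 13.4 TPM in controls and at 8.07, 8.05 and 15.5 TPM after knockout, so guide 4 lay above the controls and guides 2 and 3 below. The library with guide 4 had a transcript length of 3716 bases for BRD3 against 5593 and 5652 with the other guides. In CPM, all 3 knockout libraries were below the controls, at 31.7, 31.2 and 38.0 against 52.0 and 48.1. The fitted log2 fold change of BRD3 was -0.37 ± 0.10 (SE, adjusted p = 0.0089, edgeR quasi-likelihood). MEPCE had 0.21 ± 0.08 (SE, adjusted p = 0.045, edgeR quasi-likelihood), a value that turned to -0.02 with limma on log2(TPM + 1), and its TPM overlapped (60.6 and 57.9 against 54.9, 61.4 and 59.2). CDK9, CCNT1, CCNT2 and LARP7 had log2 fold changes of -0.08 to 0.23 with adjusted p of 0.096 to 0.77 (edgeR quasi-likelihood). The 10 most abundant genes took 9.83% to 10.7% of counts after knockout and 6.23% to 6.25% in controls, and with library size alone the median gene moved by -0.21.

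**Figure D5:**
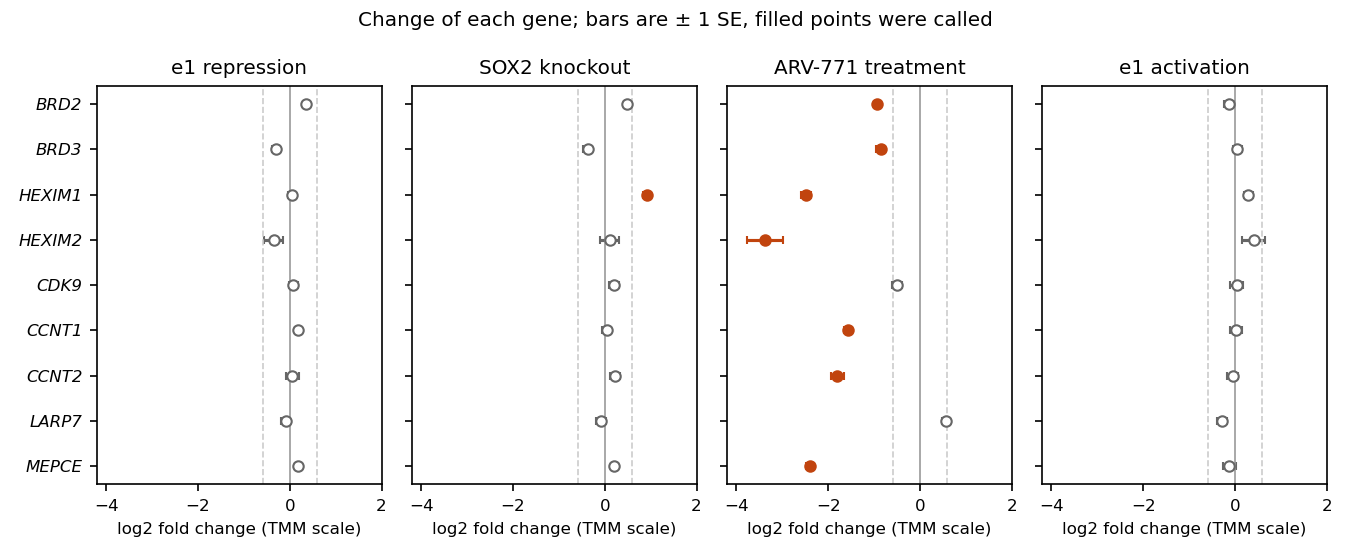
Log2 fold change on the TMM scale (horizontal axis) of each of the 9 genes (vertical axis) in the 4 comparisons (panels); bars are 1 SE, dashed lines mark 1.5-fold, and filled points passed the adjusted p of 0.05 and the 1.5-fold limit. Filled points are 7 with ARV-771 and HEXIM1 after SOX2 knockout, and none with e1 repression or e1 activation.

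With e1 repression, which lowered SOX2 by another route, 0 of the 9 genes was called, whereas 20% of the 13792 genes tested were. With no fold limit, 4 of the 9 had an adjusted p under 0.05, against 44.3% of all genes tested, and 4 had an unadjusted p under 0.05, against 51.1% of all. DESeq2 and limma also called 0. BRD2 was the clearest of these, at 122 and 131 TPM with control guides and 165 and 163 TPM with e1 guides, without overlap, as was so for 65.5% of genes tested. Its log2 fold change was 0.36 ± 0.05 (SE, adjusted p = 5.1e-05, edgeR quasi-likelihood). BRD3 had -0.31 ± 0.08 (SE, adjusted p = 0.0063, edgeR quasi-likelihood) while its TPM overlapped, at 17.8 and 18.7 against 19.9 and 16.1, and the transcript length given to it was 3627 bases in e1 library 1 against 4560 to 5080 in controls. CCNT1 (0.18, adjusted p = 0.043) and MEPCE (0.18, adjusted p = 0.023, both edgeR quasi-likelihood) were under 1.5-fold as well. HEXIM1 stood at 19.2 and 19.7 TPM with control guides and at 20.7 and 19.0 TPM with e1 guides. These groups overlapped, and its log2 fold change was 0.04 ± 0.08 (SE, adjusted p = 0.69, edgeR quasi-likelihood), with an approximate 95% interval of -0.11 to 0.19. In the same libraries the 6 squamous markers, all detected, summed to 10548 to 10691 TPM with e1 guides and 6319 to 6338 TPM with control guides. The 4 mesenchymal markers, 2 of them at 0 in both control libraries and 1 at 0 in both e1 libraries, summed to 1120 to 1194 TPM against 127 to 138 TPM. Here too most of each mesenchymal sum was VIM, and the squamous sum says little of TP63 and DSG3.

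The responses of HEXIM1 to e1 repression and to SOX2 knockout differed. The interaction over the 9 libraries of both experiments gave a log2 difference, e1 repression minus knockout, of -0.85 ± 0.12 (SE, adjusted p = 0.00013, edgeR quasi-likelihood). It ranged from -0.91 to -0.65 over 16 other settings and was called in each. For this difference 1 of the 9 genes was called, HEXIM1 itself, against 16.6% of the 14455 genes tested, 8.37% of them with a negative difference. For BRD2 the difference was -0.11 with an approximate 95% interval of -0.28 to 0.07, and for BRD3 0.08 with an interval of -0.18 to 0.34. The control libraries of the experiments differed in HEXIM1 as well: 19.2 and 19.7 TPM in CRISPRi controls, 14.2 and 14.5 TPM in knockout controls and 17.1 and 16.5 TPM with DMSO. The knockout libraries, at 22.9 to 24.1 TPM, lay above all of these. The dCas9 fusion, the guides and the experiment differ together between these controls and cannot be told apart.

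In SKMES1, e1 activation called 0 of the 9 genes, and 0.188% of the 14859 genes tested were called. At an unadjusted p under 0.05, 1 of the 9 passed, namely HEXIM1, against 14.2% of all genes tested, and DESeq2 and limma also called 0 of the 9. HEXIM1 stood at 20 and 22.7 TPM with control guides and at 27.4 and 26.7 TPM with e1 guides, and the groups did not overlap, as was so for 44.5% of genes tested. Its log2 fold change was 0.29 ± 0.10 (SE, adjusted p = 0.30, edgeR quasi-likelihood). The approximate 95% interval was 0.09 to 0.48 before adjustment, and the unadjusted p of the same test was 0.029. LARP7 stood at 37.6 and 36.0 TPM with control guides and at 29.4 and 33.2 TPM with e1 guides, also without overlap, with -0.28 ± 0.11 (SE, adjusted p = 0.36, edgeR quasi-likelihood). HEXIM2 had 0.41 ± 0.25 (SE, adjusted p = 0.52, edgeR quasi-likelihood), and its TPM overlapped, at 9.18 and 10.9 against 10.3 and 14.5. BRD2, at 84.1 and 89.8 against 87.7 and 92.5 TPM, also overlapped. The spread between these libraries was the widest of the 4 comparisons (biological coefficient of variation 0.166, against 0.0398 to 0.0821), which limits what could be detected.

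Between the lines, the 2 SKMES1 control libraries were set against the 6 KYSE140 control libraries. MEPCE, CCNT1 and BRD2 were lower in SKMES1 and 0 of the 9 was called higher, where 25.8% of the 15532 genes tested were called lower, 31.4% higher and 57.2% either way. Without the fold limit 6 of the 9 passed, against 76.4% of genes tested. MEPCE stood at 30.8 and 40.8 TPM in SKMES1 against 57.7 to 69.6 TPM in KYSE140, with a median of 60.1 TPM, and its log2 difference was -0.89 ± 0.08 (SE, adjusted p = 4.1e-06, edgeR quasi-likelihood). CCNT1 stood at 11.9 and 15.2 TPM against 15.3 to 27.5 TPM with a median of 19.6 TPM, and its log2 difference was -0.70 ± 0.08 (SE, adjusted p = 2.2e-05, edgeR quasi-likelihood). BRD2 stood at 84.1 and 89.8 TPM against 115 to 162 TPM with a median of 127 TPM, and its log2 difference was -0.63 ± 0.07 (SE, adjusted p = 1.1e-05, edgeR quasi-likelihood). The lines did not overlap for 6 of the 9 genes, against 65.5% of genes tested: for these 3, CCNT1 by a narrow margin, and for BRD3, HEXIM1 and CDK9, which stood higher in SKMES1. The margin was narrow too for HEXIM1 (lowest SKMES1 library 20 TPM, highest KYSE140 library 19.66 TPM) and BRD3 (19.62 and 18.66 TPM). Their log2 differences were 0.22 ± 0.07 and 0.17 ± 0.07 (SE, adjusted p = 0.012 and 0.0503, edgeR quasi-likelihood). CDK9 stood at 49.6 and 50.03 TPM in SKMES1 and at 25.4 to 38.4 TPM in KYSE140, with a log2 difference of 0.54 ± 0.10 (SE, adjusted p = 0.00082, edgeR quasi-likelihood) that was under 1.5-fold. BRD2 was no longer called without CRISPRa control library 1 (-0.58), CDK9 was called higher without CRISPRa control library 2 (0.65) and with limma (0.62 and 0.64), and CCNT1 was not called with limma (-0.56 and -0.53). Line, CRISPR system and experiment cannot be told apart here.

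The wider pathway was followed through a list of 73 genes in 6 groups, of which 70 were tested with ARV-771: 28 fell, 8 rose and 34 were not called, where 31.7% of all genes tested fell and 21.2% rose. Their median log2 fold change was -0.42, against -0.04 for all genes tested. Of the super elongation complex, which carries P-TEFb on active genes, 6 of 9 tested genes fell and 0 rose. They included the elongation factor genes ELL (-2.23, 10.8 and 9.96 TPM with DMSO and 1.28 and 1.32 TPM with ARV-771) and ELL2 (-1.79), which shared reads with other genes in some libraries and so are less certain. Of the pausing factors, 3 of 6 rose and 1 fell, among the risen NELFCD (0.69) and NELFE (0.64), subunits of the negative elongation factor. Of the other transcription kinases and cyclins, 4 of 9 fell, among them CDK12 (-1.70) and CDK13 (-0.97), kinases of elongating polymerase. Of the other bromodomain genes, 15 of 33 fell and 3 rose, with the histone acetyltransferase gene EP300 at -1.56 and BRD1, a scaffold of acetyltransferase complexes, at -2.12. In the PAF complex group 1 of 8 rose (WDR61, 0.75) and 1 fell (LEO1, -1.36), and in the group of 7SK RNA and its handling JMJD6 fell (-1.08) and 1 of 5 rose. The riser was the 7SK RNA gene RN7SK, with 9 and 8 counts with DMSO and 31 and 32 with ARV-771. 7SK RNA carries no poly-A tail, so poly-A libraries hold a small part of it, and these counts do not measure its level. The mitochondrial scaling moved the median gene by -1.07, more than NELFCD, NELFE and WDR61 rose on the TMM scale, so their direction depends on the scaling. In TPM the groups overlapped for each of them. NELFCD stood at 47.6 and 48.2 with DMSO and at 45.4 and 48.7 with ARV-771, and NELFE at 92.0 and 88.5 against 91.9 and 89.0. WDR61 stood at 60.65 and 70.05 TPM with DMSO and at 59.86 and 64.4 TPM with ARV-771.

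After SOX2 knockout 5 of 71 genes of the list rose and 3 fell, where 16.3% of all genes tested rose and 13.5% fell, with ELL2 (0.83), ELL (0.77), the elongation and pausing factor gene SUPT5H (0.74) and SP100 (0.81), a nuclear body protein gene, upward, and MNAT1 (-0.61), of the CDK7 kinase complex, and CECR2 (-1.06), a chromatin remodeller gene, downward. With e1 repression 2 of 70 rose and 3 fell, where 9.3% of all genes tested rose and 10.7% fell. ELL2 rose by 1.59 on the log2 scale, from 25.1 and 33.6 TPM to 88.7 and 76.9 TPM, and CECR2 fell by 1.60. SP110, another nuclear body protein gene, had 0 counts in both CRISPRi controls and 24 and 17 counts with e1 guides. For ELL2 the difference of e1 repression minus knockout was 0.79 ± 0.12 (SE, adjusted p = 0.00021, edgeR quasi-likelihood), opposite in sign to that of HEXIM1. The controls differed for ELL2 as well, with 58.1 and 62.5 TPM in knockout controls. The knockout libraries, at 101 to 105 TPM, lay above the e1 libraries. With e1 activation 0 of 72 was called. Between the lines 12 of 73 were higher in SKMES1 and 21 lower, where 31.4% and 25.8% of all genes tested were. They included SMARCA2 (1.90), a chromatin remodelling ATPase gene, upward and MLLT3 (-2.26), of the super elongation complex, downward.

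Across the 13 KYSE140 libraries, the genes whose scaled levels followed HEXIM1 most closely were MB21D2, TBC1D20 and RIPK4, with Pearson r of 0.994, 0.994 and 0.993 among 11144 genes that averaged 50 counts or more. Those closest to BRD2 were AMOTL2, KCTD11 and UGCG, with r of 0.996, 0.996 and 0.994. Without the ARV-771 libraries, over 11 libraries, r was 0.937, 0.951 and 0.958 for the genes like HEXIM1 and 0.986, 0.987 and 0.980 for those like BRD2. The points share libraries and controls, so these are descriptions without a test. The genes were picked over these same libraries, so likeness in the changes below was built in. RIPK4, an epithelial differentiation kinase gene, fell by 3.38 on the log2 scale with ARV-771 and had 0.92 after SOX2 knockout, beside -2.48 and 0.91 for HEXIM1. MB21D2 and TBC1D20 had -2.63 and -1.79 with ARV-771 and 0.79 and 0.50 after knockout. AMOTL2, which encodes an angiomotin-like scaffold, fell by 2.69 with ARV-771 and had 1.45 after knockout, beside -0.94 and 0.49 for BRD2.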

How the data were processed

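RNA-seq libraries were made from poly-A RNA with a directional kit. The authors mapped reads with Bowtie2 (hg19) and obtained gene levels of the GENCODE annotation by RSEM, per the study's methods; versions are not given in the sources used here. The deposited tables held an expected count per gene, an unnormalized estimate by RSEM. The authors' RSEM run also gave TPM, which is scaled within a library and corrected for an effective length estimated per library, so isoform estimates can move the TPM of a gene with steady counts. The deposited FPKM was not used.

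Expected counts were rounded and entered a quasi-likelihood test (edgeR 4.0.16, R 4.3.3) under TMM scaling and filterByExpr (minimum count 10, minimum total 15), on the libraries of the groups compared and across all genes, with Benjamini-Hochberg adjustment. Calls needed an adjusted p under 0.05 and more than 1.5-fold. The effects of e1 repression and knockout were compared by an interaction contrast. Alternatives were RLE and library size scaling, scaling to mitochondrially encoded genes, no filter, no minimum fold change, DESeq2 1.42.0, limma 3.58.1 with a pseudocount of 1 or 0.1 on log2 TPM where a gene averaged 1 TPM or more, a replicate block, and omission of each library in turn. The test was run on simulated data with 200 genes changed 3-fold, drawn from genes that averaged 50 counts or more. It recovered 199 of them at the spread of e1 repression (13560 genes) and 200 for knockout (13680). It recovered 200 for ARV-771 (13298) and 183 for e1 activation (14558). In the same order, 10, 14, 4 and 36 unchanged genes were called. Recovery of smaller changes or of genes with fewer counts was not simulated. Replicate pairs differed by more than sampling noise (chi-square per degree of freedom of 2.19 to 28.8), so each library counted as 1 replicate.

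The 9 genes, the pathway list and the tests were chosen with earlier results of these data known. All 9 were named in every comparison; of each pathway group, the rule named the 2 called genes with the smallest adjusted p in a comparison, and for likeness the 3 genes with the highest Pearson r of log2 TMM-scaled CPM (prior count 1) to HEXIM1 and to BRD2, of which the text gives most. Coordinates came from GENCODE 44 on GRCh37, which matched 55538 of 57820 identifiers (96.1%), and promoters from RefSeq.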

Additional observations from a re-analysis of the deposited data

Results flagged for a closer look

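HEXIM1 drew attention because its effects in a pair of experiments on the same line differed in a test of the difference itself. The log2 fold change with e1 repression minus that with SOX2 knockout was -0.85 (edgeR quasi-likelihood, adjusted p = 0.00013), with effects of 0.04 and 0.91. All 3 knockout libraries lay above both of their controls, while the e1 libraries overlapped theirs. Groups of 2 or 3 libraries are too small for a test of single outlying samples.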

How the results depend on the processing

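HEXIM1, MEPCE, HEXIM2, CCNT1, CCNT2, BRD2 and BRD3 kept their fall with ARV-771 under all 13 alternatives, HEXIM1 its rise after SOX2 knockout under 12 and its difference between e1 repression and knockout under 16. With ARV-771, LARP7 turned to -0.19 and -0.20 with limma at a pseudocount of 1 and of 0.1 on TPM and to -0.51 with mitochondrial scaling; library size alone left 5.90% of called genes risen, limma 1.89% and 1.73% and mitochondrial scaling 0.823%, against 40.0%. After knockout the risen share was 54.7%, 36.2% with library size alone and 38.9% and 39.1% with limma. Small changes also changed sign, and the cause was not tested. After knockout, library size alone gave -0.10 for HEXIM2 and -0.16 for CCNT1. Limma with the larger and the smaller pseudocount there gave -0.15 and -0.17 for HEXIM2, -0.10 and -0.10 for CDK9, -0.069 and -0.072 for CCNT1, -0.14 and -0.15 for CCNT2 and -0.018 and -0.018 for MEPCE. For e1 activation, BRD2 was 0.050 and 0.051 with limma. For e1 repression minus knockout, LARP7 was -0.015 with RLE, -0.0050 with no filter and -0.015 with DESeq2. Library size alone gave 0.030 for BRD2, 0.029 for CDK9 and 0.13 for MEPCE there, and limma 0.058 and 0.058 for BRD2, 0.26 and 0.26 for CDK9, 0.37 and 0.41 for CCNT2 and 0.20 and 0.21 for MEPCE. The risen share of called genes for that difference was 49.5%, 67.6% with library size alone and 65.2% and 67.5% with limma. LARP7 between lines was 0.027 and 0.028 with limma.

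With no minimum fold change, 6103 genes and 4 of the 9 were called for e1 repression, 7123 and 4 for knockout, 4010 genes for their difference and 6 of the 9 between lines. For e1 activation, 1116 genes were called with no filter on low counts, 400 with DESeq2, 9 and 8 with limma, and 28 otherwise. Leaving out single libraries gave 1 to 764 there: 764 without CRISPRa control 1, 262 without CRISPRa control 2 and 1 without e1 guide 3; the 9 genes had 0 calls in each. Where a sign changed, the ranges were -0.013 to 0.16 (CDK9), -0.019 to 0.11 (HEXIM1), -0.23 to 0.31 (CCNT2) and -0.20 to 0.028 (LARP7) for e1 repression, and -0.088 to 0.17 for CCNT1 after knockout. For e1 activation they were -0.0027 to 0.11 (BRD3), -0.075 to 0.16 (CDK9), -0.11 to 0.015 (CCNT2), -0.25 to 0.033 (MEPCE) and -0.14 to 0.19 (CCNT1). For e1 repression minus knockout they were -0.037 to 0.037 (MEPCE), -0.10 to 0.13 (LARP7) and -0.44 to 0.093 (CCNT2), and between lines -0.14 to 0.0039 (LARP7). Calls of members that depended on 1 library were LARP7 with ARV-771, called without DMSO A (0.62) or ARV-771 B (0.67) and also with RLE and DESeq2 (0.61 in each), CDK9, called without DMSO B (-0.64), and the calls between lines given above. With 1 library left in a group, it was assumed to vary like the others.

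With a replicate block, 2807 genes and 0 of the 9 were called for e1 repression and 7090 genes and 7 of the 9 for ARV-771, and no call of a member changed. Deviations of libraries with the same number correlated at 0.016 for e1 repression and -0.026 for ARV-771, so the numbers were not taken as pairs. Other groups shared fewer than 2 numbers. Depth limits HEXIM2 with ARV-771 (9 and 3 counts) most, and 2 or 3 libraries a group limit every comparison.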
